A study of Mus musculus with 8 samples.

Results

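Transcripts of 10 genes of the ATF4 stress response were examined in mouse kidney tubuloids treated with doxycycline (DOX) or with its vehicle, dimethyl sulfoxide (DMSO). The genes were taken by symbol: the transcription factors Atf4, Atf5, Atf3 and Ddit3, and the target genes Trib3, Chac1, Sesn2, Asns, Gdf15 and Vldlr. All 10 were present among the 24063 gene symbols of the deposited tables. With DOX, 9 of the 10 had a fold change above 1 (45% of all genes did), and the 4 DOX libraries lay above the 4 DMSO libraries for Ddit3, Trib3 and Asns (1.76% of all genes). None of the 10 passed the test adjusted over all genes, which gave no p-value for Ddit3 and called 0.147% of all genes. The library DOX 9 held the highest level of 8 of the 10.

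Tubuloids are tubule-like structures grown in Matrigel from fragments of postnatal mouse kidney (day 7 to day 10 in the sample descriptions, younger in the study's methods). Every library, DMSO included, came from cells with the genotype Pkd2fl/fl Pax8rtTA TetOCre mTmG: floxed Pkd2 alleles, a tetracycline transactivator under the Pax8 promoter of renal epithelium, a Cre recombinase that responds to it, and a membrane reporter that turns from red to green on recombination. DOX or DMSO was added on day 3 of culture for 3 days, RNA was taken on day 7, and 4 libraries were made for each treatment. The Pax8 promoter limits Cre to epithelial cells, and non-epithelial cells of the cultures keep Pkd2. By western blot the paper found less of the Pkd2 protein after DOX, with some still detectable. Red cells, presumably wild type, remained in differentiated structures. No library without the floxed alleles received DOX here, so that exposure to doxycycline, Cre induction and loss of Pkd2 cannot be told apart. The study's methods speak of cultures, and the labels do not say whether the libraries of a group came from separate animals, so that the p-values below measure only the spread between these libraries.

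ATF4 is a basic leucine zipper (bZIP) transcription factor at the centre of the integrated stress response. Kinases that sense amino acid shortage, unfolded protein in the endoplasmic reticulum (ER), heme shortage or double-stranded RNA phosphorylate the initiation factor eIF2, which lowers protein synthesis as a whole while upstream reading frames of the Atf4 transcript let more ATF4 protein be made. ATF4 then binds C/EBP-ATF response elements (CARE) at genes for amino acid supply, tRNA charging and stress signalling. Since much of this control acts on translation, the level of Atf4 mRNA does not give the level of ATF4 protein.

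Summed counts lay between 63922677 and 94517663 with DMSO and between 75138237 and 102716313 with DOX. Counts were found for 17054 to 17903 genes in 6 libraries and for 13243 and 13599 in DMSO 20 and DOX 19. Markers of tubule epithelium (Cdh1, Epcam, Pax8, Pax2, Krt8 and Krt18) summed to 37199 to 155180 normalised counts per library with DMSO and 41466 to 93577 with DOX. All 6 were lower with DOX (median log2 fold change -0.39) and 0 were called, but 2 of the 6 were higher without DMSO 3 (median -0.10) and 2 without DMSO 5 (median -0.13). Their part in the members' differences was not tested. Of 4 collecting duct markers, Gata3 (1175 to 4764 normalised counts), Fxyd4 (116 to 6262) and Avpr2 (0 to 2503) were lower with DOX (median log2 fold change -1.72, 0 called), and the water channel Aqp2 stayed at 1.70 or less. That median rested on DMSO 5 and was -0.29 without it, Gata3 then being higher with DOX. Of the proximal tubule markers, Lrp2 was at 40.9 or less and Slc34a1 at 0.849 or less. Markers of stroma, endothelium and immune cells summed to 56068 to 600036 in DMSO and 110241 to 168691 in DOX libraries, the highest being DMSO 15. The targeted gene Pkd2 averaged 6130 ± 1114 normalised counts with DMSO and 4946 ± 772 with DOX (SD, n = 4 per group), a difference within the spread between libraries (log2 fold change -0.31, DESeq2 adjusted p = 0.999). Whole-transcript counts do not separate the floxed exons from the rest.

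The promoters of the members are shown first, because ATF4 acts on its targets through such sequences. Windows from 250 bases before to 50 bases after each start site (RefSeq, GRCm38.p6, the assembly of mm10) were searched on both strands for the CARE letters TGATGNAA. A match was found for 5 of the 10 members (Atf3, Trib3, Chac1, Asns and Vldlr), where 4.51% of all 27025 genes with a window had one. Vldlr, Atf5 and Gdf15 each had more than 1 window, and only the downstream window of Vldlr held a match. Capitals mark the match in the sequences, which run 5′ to 3′ on the strand of the gene. For Atf3, Chac1, Asns and Vldlr the 250 bases before the start are given, and for Trib3 the 30 bases around a match that lies 15 to 22 bases after the start.
Asns (chr6:7693210-7693459, minus strand): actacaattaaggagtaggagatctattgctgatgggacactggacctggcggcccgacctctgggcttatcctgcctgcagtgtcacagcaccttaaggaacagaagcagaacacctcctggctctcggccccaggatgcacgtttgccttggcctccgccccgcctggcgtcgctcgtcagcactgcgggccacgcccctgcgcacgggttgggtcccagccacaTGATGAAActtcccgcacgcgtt
Chac1 (chr2:119350992-119351241, plus strand): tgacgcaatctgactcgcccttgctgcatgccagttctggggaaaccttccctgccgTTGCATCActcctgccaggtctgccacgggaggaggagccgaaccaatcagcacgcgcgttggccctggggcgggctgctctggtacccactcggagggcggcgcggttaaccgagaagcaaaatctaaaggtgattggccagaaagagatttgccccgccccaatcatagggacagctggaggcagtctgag
Atf3 (chr1:191183334-191183583, minus strand): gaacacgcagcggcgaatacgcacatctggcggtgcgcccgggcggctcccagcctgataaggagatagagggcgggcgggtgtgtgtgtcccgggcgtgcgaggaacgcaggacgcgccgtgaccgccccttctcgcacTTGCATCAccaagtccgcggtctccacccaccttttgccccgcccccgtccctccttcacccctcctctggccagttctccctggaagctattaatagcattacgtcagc
Vldlr (chr19:27216770-27217019, plus strand): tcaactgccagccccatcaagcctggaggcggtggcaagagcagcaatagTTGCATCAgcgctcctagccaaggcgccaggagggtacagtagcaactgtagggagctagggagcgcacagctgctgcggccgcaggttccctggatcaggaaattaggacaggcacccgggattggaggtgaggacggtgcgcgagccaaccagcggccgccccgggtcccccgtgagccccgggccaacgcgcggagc
Trib3 (chr2:152344028-152344057, minus strand): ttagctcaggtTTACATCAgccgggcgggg

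The match lay 23 to 16 bases before the start in Asns, 110 to 103 in Atf3, 193 to 186 in Chac1 and 200 to 193 in Vldlr. Asns held the letters in the direction of the gene (TGATGAAA), whereas the other members held their reverse complement, TTGCATCA in Atf3, Chac1 and Vldlr and TTACATCA in Trib3. The cyclic AMP response element TGACGTCA and the ER stress element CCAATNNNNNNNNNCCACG were found in 0 of the 10 members, against 2.03% and 0.137% of all genes. A match is a description of the letters in these windows, and elements outside them were not searched.

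The levels of the members were compared in DMSO libraries as deposited TPM of 1 transcript per gene, since reads shared by isoforms were counted for each of them. Atf4 was the highest at 124 ± 9.06 TPM (SD, n = 4), followed by Gdf15 at 119 ± 87.6, Asns at 80.8 ± 35.7, Ddit3 at 36.5 ± 7.96, Sesn2 at 32.3 ± 7.91 and Vldlr at 24.3 ± 6.36. Trib3 at 11.2 ± 4.94, Chac1 at 8.26 ± 3.63, Atf5 at 5.75 ± 2.60 and Atf3 at 2.34 ± 1.62 were the lowest. The ranges of neighbours in this order overlapped for 6 of 9 pairs, and the neighbours that lay apart were Asns and Ddit3, Vldlr and Trib3, and Atf5 and Atf3. For Atf5 the transcript used was a non-coding one, and its coding transcript had 0.907 to 7.46 TPM with DMSO. That range overlapped the 0 to 3.45 TPM of Atf3. Atf4 varied least around its mean and Gdf15 most, from 30.7 to 238 TPM within the DMSO group. In DOX libraries Atf4 averaged 195 ± 67.7 TPM, Asns 233 ± 79.5 and Ddit3 133 ± 126.

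**Figure D1:**
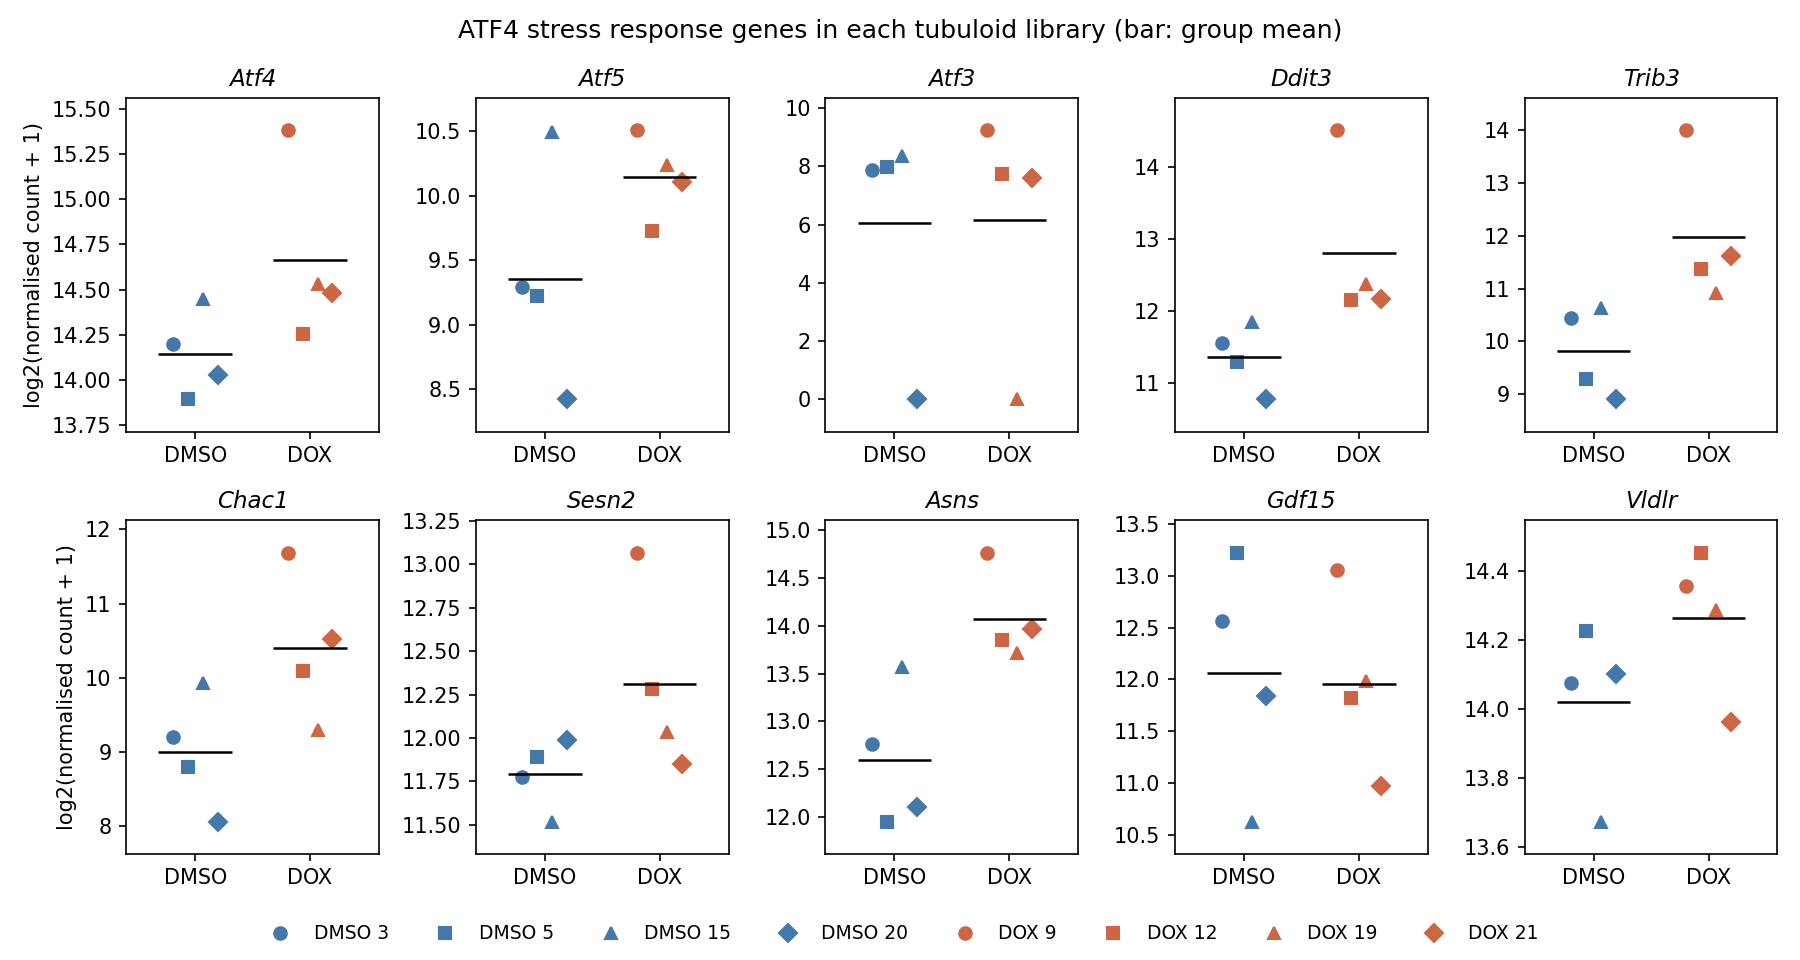
Normalised counts of the 10 genes on a log2(normalised count + 1) scale, 1 point per library, with the DMSO libraries at left and the DOX libraries at right of each panel and a bar at the group mean. All 4 DOX points lie above all 4 DMSO points for Ddit3, Trib3 and Asns, DOX 9 is the top point of 8 panels, and Atf3 is at 0 in DMSO 20 and DOX 19.

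Atf4 itself (Entrez 11911, chromosome 15, 80255184 to 80257545) had normalised counts of 18811 in DMSO 3, 15191 in DMSO 5, 22358 in DMSO 15 and 16706 in DMSO 20. The DOX libraries had 42738 in DOX 9, 19565 in DOX 12, 23657 in DOX 19 and 22851 in DOX 21. DOX 12 lay below DMSO 15, so the groups overlapped, and the other 3 DOX libraries lay above every DMSO library. On the deposited TPM scale, a comparison chosen after seeing the data, the Atf4 groups did not overlap (254 to 299 TPM with DMSO, 348 to 650 with DOX, summed over both transcripts). DOX was 1.49-fold above DMSO (log2 fold change 0.57, SE 0.311; 95% Wald interval 0.976 to 2.27; DESeq2 adjusted p = 0.986), and the exact two-sided permutation test gave p = 0.0571. Both transcripts of Atf4 had nearly the same counts in each library, for example 10128 and 10088 in DMSO 3. Without DOX 9 the log2 fold change was 0.27.

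Ddit3 (Entrez 13198, chromosome 10, 127290793 to 127296291) encodes CHOP, a bZIP factor induced by ATF4 that is known for its part in cell death under lasting ER stress. Its normalised counts were 2996 in DMSO 3, 2495 in DMSO 5, 3694 in DMSO 15 and 1749 in DMSO 20, against 23322 in DOX 9, 4535 in DOX 12, 5302 in DOX 19 and 4596 in DOX 21. All DOX libraries lay above all DMSO libraries (exact permutation p = 0.0286, the smallest that 4 against 4 libraries allow). DOX 9 held 5.07 times the median of the other 3 DOX libraries, and the Cook's distance filter of DESeq2, which sets aside genes with a single deviating library, gave no p-value for Ddit3. The log2 fold change was 1.79 (SE 0.610), with an adjusted p of 0.358 in DESeq2 when that filter was switched off and an unadjusted p of 0.0135 in edgeR. Without DOX 9, Ddit3 was 1.76-fold higher with DOX (DESeq2 unadjusted p = 0.0086, adjusted p = 0.667).

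Atf5 and Atf3, relatives of ATF4 that also respond to eIF2 phosphorylation, did not separate the groups. Atf5 (Entrez 107503, chromosome 7, 44812256 to 44816658), a factor linked to the mitochondrial stress response, had 625, 596, 1441 and 342 normalised counts in DMSO 3, 5, 15 and 20 and 1456, 845, 1206 and 1101 in DOX 9, 12, 19 and 21. DMSO 15 lay just below the highest DOX library, DOX 9, while the other 3 DMSO libraries lay below every DOX library (log2 fold change 0.62, SE 0.474; DESeq2 adjusted p = 0.999). The Atf5 log2 fold change was 1.15 without DMSO 15, 0.37 without DMSO 20 and 0.36 without DMSO 20 and DOX 19. Atf3 (Entrez 11910, chromosome 1, 191170296 to 191183333), an early stress-induced factor, had 0 counts in DMSO 20 and in DOX 19, the libraries with the fewest detected genes, which allows up to 3.84 and 3.38 normalised counts there (3 counts, counting error only). In the other 6 libraries Atf3 lay between 231 and 324 normalised counts with DMSO and between 192 and 602 with DOX. Its log2 fold change of 0.32 had an SE of 1.71, turned to -0.58 without DOX 9.

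Among the target genes, Trib3 showed the largest difference. Trib3 (Entrez 228775, chromosome 2, 152337425 to 152344060) encodes a pseudokinase that binds AKT and feeds back on ATF4 and CHOP. Its normalised counts were 1399 in DMSO 3, 621 in DMSO 5, 1585 in DMSO 15 and 478 in DMSO 20. They were 16408 in DOX 9, 2649 in DOX 12, 1923 in DOX 19 and 3133 in DOX 21. The groups did not overlap (exact permutation p = 0.0286), DOX 19 lying nearest to DMSO 15, the highest DMSO library. The fold change was 5.91 (95% Wald interval 2.13 to 16.4; log2 fold change 2.56, SE 0.751), with an unadjusted p of 0.000643 and an adjusted p of 0.182 in DESeq2. In edgeR the unadjusted p was 0.00879. Without DOX 9, in which Trib3 was 6.19 times the median of the other DOX libraries, the fold change was 2.52 (DESeq2 unadjusted p = 0.00992, adjusted p = 0.676).

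Asns (Entrez 27053, chromosome 6, 7675165 to 7693209) encodes asparagine synthetase, a classical ATF4 target. Its normalised counts were 6956 in DMSO 3, 3962 in DMSO 5, 12120 in DMSO 15 and 4398 in DMSO 20, against 27878 in DOX 9, 14773 in DOX 12, 13499 in DOX 19 and 15972 in DOX 21. The groups did not overlap (exact permutation p = 0.0286), although DMSO 15 lay close to the lowest DOX library, DOX 19. The fold change was 2.63 (95% Wald interval 1.43 to 4.82; log2 fold change 1.39, SE 0.446; DESeq2 unadjusted p = 0.00178, adjusted p = 0.280). Of the members with a non-overlapping difference, Asns depended least on DOX 9, with a log2 fold change of 1.11 without it. Without DMSO 15, Asns had a log2 fold change of 1.82 and passed the threshold (DESeq2 adjusted p = 0.000884), in a fit that called 0.575% of all genes. DMSO 15 was also the library with the highest sum of stromal, endothelial and immune markers, and the part of these cells in its Asns level was not tested. In bulk RNA, fewer cells of a type and less RNA per cell cannot be told apart.

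Chac1 (Entrez 69065, chromosome 2, 119351242 to 119354326) encodes an enzyme that degrades glutathione. Its normalised counts were 588, 442, 979 and 266 in DMSO 3, 5, 15 and 20 and 3299, 1090, 631 and 1471 in DOX 9, 12, 19 and 21. Only DOX 19 of the DOX libraries lay within the DMSO range (exact permutation p = 0.0571; log2 fold change 1.51, SE 0.603; DESeq2 unadjusted p = 0.0122, adjusted p = 0.683). Without DOX 9 the Chac1 log2 fold change was 0.90 (DESeq2 unadjusted p = 0.103, adjusted p = 0.999). Sesn2 (Entrez 230784, chromosome 4, 132492804 to 132510456), which encodes the leucine-binding inhibitor of mTORC1 sestrin 2, lay between 2934 and 4064 normalised counts with DMSO and between 3696 and 8587 with DOX. The Sesn2 level of DOX 9 was 2.05 times the median of the other DOX libraries, and the log2 fold change came to 0.59 with an SE of 0.323 (DESeq2 adjusted p = 0.999) and to 0.26 without DOX 9.

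For Gdf15 and Vldlr the groups overlapped. Gdf15 (Entrez 23886, chromosome 8, 70629393 to 70632470), a secreted stress hormone of the TGF-beta superfamily, had 6045, 9563, 1580 and 3663 normalised counts in DMSO 3, 5, 15 and 20 and 8521, 3613, 4049 and 2003 in DOX 9, 12, 19 and 21. Its DMSO libraries spanned a wider range that enclosed all DOX libraries (log2 fold change -0.20, SE 0.622; DESeq2 adjusted p = 0.999). The direction of Gdf15 turned without DMSO 5 (log2 fold change 0.28) and without DOX 21 (0.05). Vldlr (Entrez 22359, chromosome 19, 27216480 to 27254231), a receptor for triglyceride-rich lipoproteins and reelin, lay between 13060 and 19157 normalised counts with DMSO and between 15948 and 22412 with DOX (log2 difference 0.24, SE 0.199; DESeq2 adjusted p = 0.999). Vldlr had the narrowest span of the members over all libraries, 1.72-fold, against 34.4-fold for Trib3 and 13.3-fold for Ddit3.

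**Figure D2:**
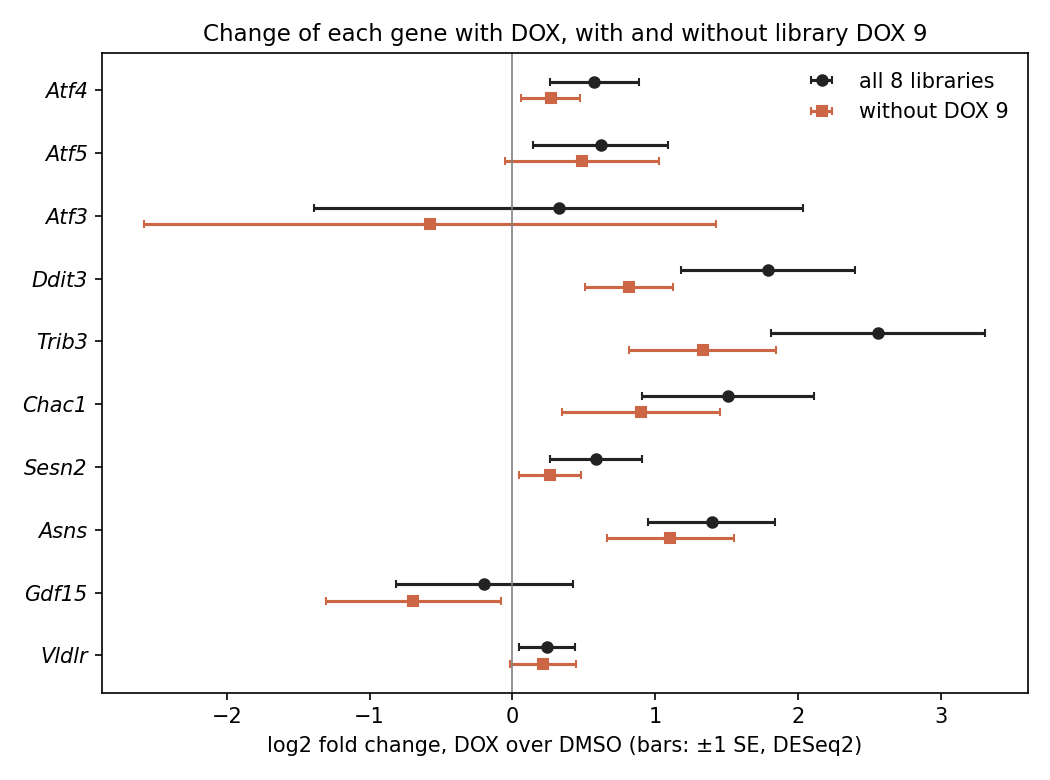
Log2 fold change of DOX over DMSO for each gene from DESeq2, with all 8 libraries (circles) and without DOX 9 (squares), and bars of 1 SE to each side. Leaving out DOX 9 moved Trib3 from 2.56 to 1.33 and Ddit3 from 1.79 to 0.82, Asns stayed above 1, and Atf3 and Gdf15 lay below 0 without it.

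Of the 10 members, 9 had at least 10 counts in every library, the exception being Atf3. Counted together, 9 of the 10 members had a log2 fold change above 0, against 45% of 15928 genes with a mean normalised count of at least 10. Their median log2 fold change was 0.60, beside -0.06 over those genes. DESeq2 called 0 of the 9 members that received an adjusted p (a call needed adjusted p up to 0.05 together with a 1.5-fold change), where 0.147% of all genes were called. An unadjusted p under 0.05 with a higher level was found for 3 members in DESeq2 (Trib3, Chac1 and Asns) and for 4 in edgeR, which adds Ddit3. The share of all genes was 2.2% in DESeq2 and 1.56% in edgeR, and edgeR called 0 members and 0% of all genes (476 of 15562 at an unadjusted p under 0.05). The groups did not overlap, DOX being higher, for 3 of the 10 members and for 1.76% of all genes. On the deposited TPM scale this held for 4 members, Atf4 being the fourth. The share of all genes on that scale was not taken, so the 4 cannot be set against it.

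Without DOX 9, 8 of 10 members remained above a log2 fold change of 0, with a median of 0.38 beside -0.07 over all genes. The same 3 genes, Ddit3, Trib3 and Asns, lay above every DMSO library in the other 3 DOX libraries, as did 2.73% of all genes. The exact permutation p of each of the 3, which is 0.0286 with all libraries, was then 0.0571. It was also above 0.05 for Ddit3 and Trib3 without DMSO 3, DMSO 5 or DMSO 20, for Trib3 without DMSO 15, and for Asns without DOX 12, DOX 19 or DOX 21. Without DMSO 20 and DOX 19, the libraries of low gene detection, 5 members (Ddit3, Trib3, Chac1, Sesn2 and Asns) had an unadjusted p under 0.05 in DESeq2, against 2.79% of all genes, and 0 were called, against 0.296%.

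**Figure D3:**
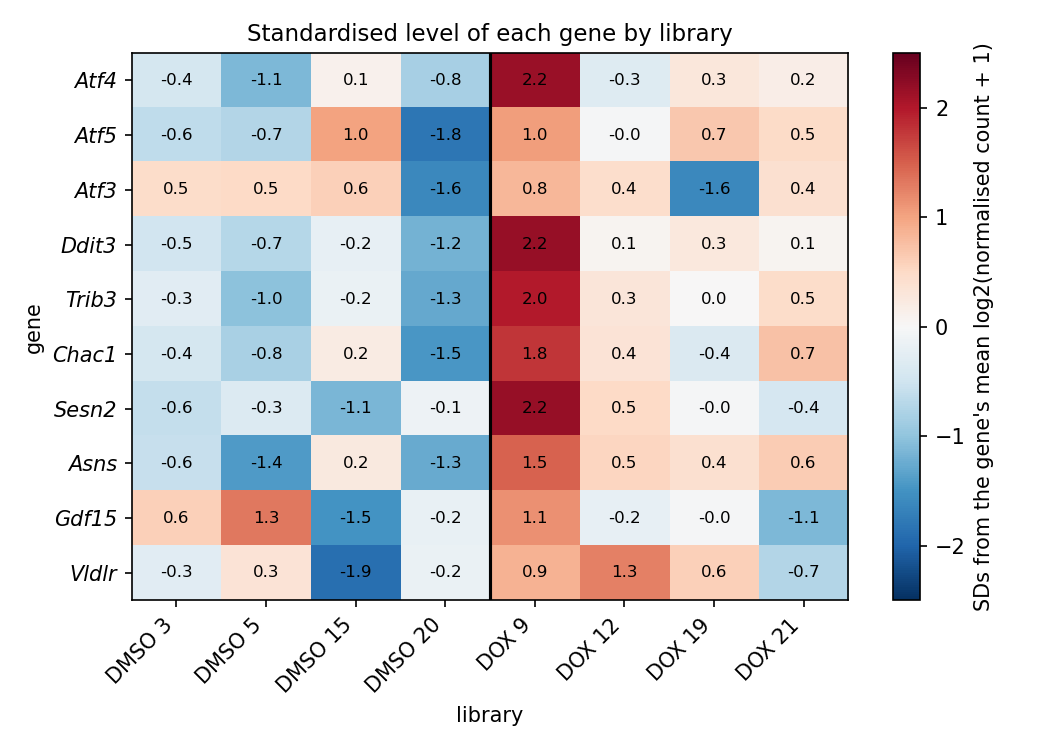
Standardised level of each gene in each library, in SDs from the gene's own mean of log2(normalised count + 1), with the DMSO libraries left and the DOX libraries right of the line. DOX 9 lies above the mean for all 10 genes, DMSO 15 is high for Atf5 but lowest for Sesn2, Gdf15 and Vldlr, and Atf3 is lowest in DMSO 20 and DOX 19.

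Across libraries, 5 of the 9 members compared varied with Atf4, and the share of all genes that do so was not taken. Pearson's r with Atf4 over all 8 libraries, on log2 counts, was 0.961 for Ddit3 (Spearman's rho 0.952), 0.937 for Trib3 (0.857), 0.875 for Asns (0.881), 0.869 for Chac1 (0.810) and 0.743 for Atf5 (0.905). The exact permutation p-values, adjusted over the 9 members compared, were 0.0107 for r and 0.0103 for rho in Ddit3, and 0.0107 and 0.0241 in Trib3. They were 0.0107 and 0.0217 in Asns, 0.0176 and 0.0392 in Chac1, and 0.0107 and 0.0205 in Atf5 (exact permutation over pairings). Leaving out DMSO 5 and DOX 9, the libraries farthest from the Atf4 median, gave r of 0.867, 0.742, 0.846, 0.703 and 0.946 for Ddit3, Trib3, Asns, Chac1 and Atf5. The points hold both treatments, and no correlation within treatments was taken. These values therefore mix the difference between treatments with the spread within them.

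For Sesn2, Atf3, Gdf15 and Vldlr the permutation test against Atf4 missed the threshold. Their r was 0.730, 0.268, 0.0812 and 0.168, with adjusted exact permutation p-values of 0.239, 0.675, 0.878 and 0.825. Their Spearman's rho was 0.357, 0.132, -0.190 and 0.167, with adjusted exact permutation p-values of 0.584, 0.758, 0.758 and 0.758. For Atf3, r was 0.819 over the 6 libraries of full gene detection, which leave out its 2 libraries at 0 (adjusted exact permutation p = 0.283). Without DMSO 5 and DOX 9, r was -0.25 for Sesn2, 0.18 for Atf3, -0.50 for Gdf15 and -0.22 for Vldlr.

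The other genes whose pattern was most like that of the targets were sought among 13238 genes with a mean normalised count of at least 100, by Pearson's r with the mean standardised level of the 6 target genes over 8 libraries. The first 5 were Aen (r = 0.956), Mir704 (0.932), Pdia4 (0.927), Rbbp5 (0.926) and Wfs1 (0.921). Without DOX 9 these values were 0.855, 0.734, 0.710, 0.881 and 0.695. Pdia4 is an ER protein disulfide isomerase and Wfs1 an ER membrane protein, Aen encodes a nuclease induced by p53, and Rbbp5 a subunit of histone methyltransferase complexes. Mir704 lies within Pdia4 on chromosome 6, and their reads cannot be told apart here.

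The genes of the arms that feed ATF4 differed in direction. A list of 17 genes held the eIF2 kinases, eIF2 and eIF2B subunits, the phosphatase subunits that reverse the phosphorylation, and Gcn1l1, Impact and Oma1. Of the 17, 12 were higher and 5 lower with DOX, 0 were called, and the median log2 fold change was 0.11. Without DOX 9 the median was 0.05, with 0 of the 17 at an unadjusted p under 0.05 in DESeq2 with DOX higher (1.82% of all genes). Without DMSO 20 and DOX 19 the median was 0.22, and 4 of the 17 had an unadjusted p under 0.05 in DESeq2 with DOX higher, against 2.79% of all genes. Ppp1r15a, which encodes the inducible phosphatase subunit GADD34 and is itself an ATF4 target, averaged 1691 ± 879 normalised counts with DMSO and 3427 ± 1853 with DOX (SD, n = 4; DESeq2 unadjusted p = 0.0486, adjusted p = 0.942). Eif2ak1, the heme-regulated kinase, had 2862 ± 383 and 3536 ± 396 (DESeq2 adjusted p = 0.999). Of 10 bZIP partners and relatives of ATF4, 7 were higher, 3 lower and 0 called (median 0.30). The smallest p-values there belonged to Creb1 (log2 fold change -0.71; DESeq2 adjusted p = 0.862) and Jdp2 (0.66; adjusted p = 0.999).

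Of the other genes known as ATF4 targets, 3 were called, all with DOX higher. All 14 genes of amino acid uptake and synthesis had a log2 fold change above 0 (median 0.72, range 0.05 to 1.57), with 7 at an unadjusted p under 0.05 in DESeq2 (2.2% of all genes) and 3 whose groups did not overlap (1.76%). Without DOX 9, 13 of 14 stayed above 0, with a median of 0.42 and 3 at an unadjusted p under 0.05 with DOX higher, against 1.82% of all genes. Slc3a2, the heavy chain of amino acid exchangers, rose from 22215 ± 1925 to 39737 ± 8377 normalised counts and was the only one called, where 0.147% of all genes were (1.79-fold; DESeq2 adjusted p = 0.0309, and 0.0209 without DOX 9). That call was lost in edgeR (edgeR adjusted p = 0.999) and when DMSO 3, DMSO 5 or DOX 21 was left out. The glycine transporter Slc6a9 had 1250 to 2177 normalised counts with DMSO and 2657 to 8580 with DOX (2.98-fold; DESeq2 adjusted p = 0.0686, and 0.0147 without DMSO 20 and DOX 19, where it was called). In contrast to Ddit3 and Trib3, the highest library for Slc6a9 was DOX 19.

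All 12 cytosolic tRNA synthetases of the list were higher as well (median log2 fold change 0.81, range 0.35 to 1.42), 10 at an unadjusted p under 0.05 in DESeq2 (2.2% of all genes) and 8 with groups that did not overlap (1.76%). Of these 12 genes 2 were called, against 0.147%. Eprs, which charges glutamate and proline tRNA, rose 2.04-fold (DESeq2 adjusted p = 0.0309), and Lars, which charges leucine tRNA, rose 1.92-fold (adjusted p = 0.0474). Without DOX 9 their log2 fold changes moved from 1.03 to 0.92 and from 0.94 to 0.82 and their calls were lost (DESeq2 adjusted p = 0.149 and 0.190), while all 12 genes stayed above 0 with a median of 0.62. Both were lost as well in edgeR (edgeR adjusted p = 0.999 for each) and when DMSO 3, DMSO 5, DOX 12 or DOX 19 was left out. The fit without DMSO 20 and DOX 19 lost both calls too (adjusted p = 0.0625 and 0.298 in DESeq2).

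Of 10 stress genes of the ATF4 programme, 6 were higher and 4 lower with DOX, and 0 were called (median log2 fold change 0.49). Cebpb and Ppp1r15a, both among the higher ones, were already counted in the bZIP and eIF2 lists. Herpud1, an ER-associated degradation factor, had 4355 ± 1042 normalised counts in DMSO and 10924 ± 8520 in DOX libraries (DESeq2 adjusted p = 0.647). The autophagy receptor Sqstm1 had 58699 ± 13420 and 111447 ± 49078 (adjusted p = 0.664), and its groups did not overlap. DOX 9 was the highest library for both, with 23532 normalised counts of Herpud1 against 5150 to 8532 in the other DOX libraries. Without it the log2 fold change moved from 1.33 to 0.63 for Herpud1 and from 0.92 to 0.58 for Sqstm1.

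The genes of the ATF6 and XBP1 arms, mostly ER chaperones and folding factors with the transcription factor Xbp1 and the sensor kinase Ern1, showed where DOX 9 stood apart. DOX 9 was the highest library for 12 of the 13, the exception being Xbp1 (44220 normalised counts in DOX 9 and 50468 in DOX 21). The 13 genes summed to 997571 normalised counts in DOX 9, against 267594 to 398255 in the other DOX and 312952 to 414969 in the DMSO libraries. Hspa5, which encodes the chaperone BiP, had 472594 normalised counts in DOX 9 and 117702 to 199526 in the other 7 libraries. All 13 had a log2 fold change above 0 with every library in the fit (median 0.54), but only 6 of 13 without DOX 9 (median -0.04), and 0 were called in either fit. Creld2 had no p-value in the fit with every library, so it could not be called there. Pdia4 was at 107235 normalised counts in DOX 9 and at 19121 to 34301 elsewhere (DESeq2 adjusted p = 0.845), and Dnajc3 had 9495 ± 3351 in DMSO and 14421 ± 9696 in DOX libraries (adjusted p = 0.999). The part of DOX 9's level of these genes in the Ddit3, Trib3 and Chac1 values of that library was not tested.

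**Figure D4:**
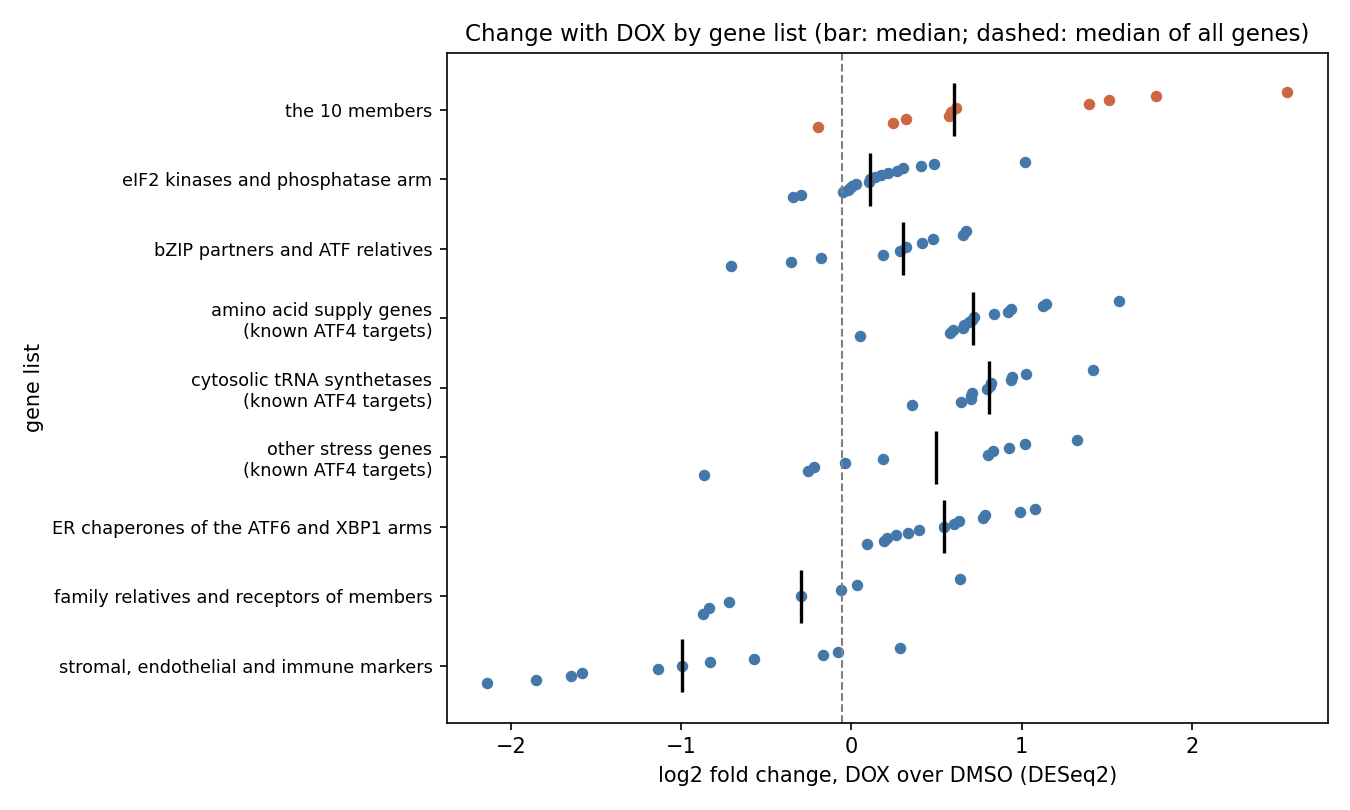
Log2 fold change of DOX over DMSO from DESeq2 for each gene of a list (points, sorted within a list), with a bar at the median of the list and a dashed line at the median of all genes (-0.06). The medians of the members (0.60), the amino acid supply genes (0.72) and the tRNA synthetases (0.81) lie to the right of the line, and that of the eIF2 list (0.11) lies close to it.

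Of 9 relatives and receptors of the members, 7 had a mean normalised count of at least 10, of which 2 were higher and 5 lower with DOX (median log2 fold change -0.30, and 0.04 without DMSO 20 and DOX 19) and 0 were called. Sesn1, a relative of Sesn2, was called without DOX 9 (log2 fold change 0.89, DESeq2 adjusted p = 0.00483) and not with it (0.64, adjusted p = 0.999). Chac2, the constitutive relative of Chac1, had 4585 ± 1281 normalised counts in DMSO and 2571 ± 594 in DOX libraries (log2 fold change -0.83; DESeq2 unadjusted p = 0.00605, adjusted p = 0.520). Reln, a ligand of the receptor encoded by Vldlr, had at most 1.01 normalised counts in DMSO and at most 30.4 in DOX libraries, and 0 counts in DOX 19. Gfral, the receptor of GDF15, had 0 counts in each library, which allows up to 3 counts in each. Of 11 stromal, endothelial and immune markers with a mean normalised count of at least 10, 10 were lower with DOX and 0 were called, Col1a1 having the smallest p (55039 ± 73603 in DMSO and 15252 ± 4883 in DOX libraries; DESeq2 adjusted p = 0.873). Col3a1 had 92566 ± 100334 and 46382 ± 16545 (adjusted p = 0.999). The median log2 fold change of these markers was -0.997, and without DMSO 15 it was -0.31, with 7 of 11 lower, Col1a1 at -0.31 and Col3a1 at 0.06. Their part in the members' differences was not tested.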

How the data were processed

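RNA-seq of 8 tubuloid libraries (SMART-Seq v4, poly-A selected, paired-end) was analysed. The authors aligned reads with STAR and counted them on mm10. The submitters' processing notes also name featureCounts and DESeq2, and versions were not given in the sources used here. Each deposited table gives a raw count for every RefSeq transcript, with FPKM (the count per length and depth, not used further) and TPM as the authors derived them. Counts and TPM were summed by symbol. Isoforms share reads, so the sums overstate depth (39252852 to 64561669 counts with 1 transcript per gene). All 28 pairs of libraries differed beyond counting error (chi-square over degrees of freedom of 410 or more).

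The treatments were tested against each other with DESeq2 1.42.0 (Wald test, R 4.3.3), the tool of the study's methods, using its default size factors and Cook's distance filter, without covariates, with independent filtering at 0.1 and Benjamini-Hochberg adjustment over all genes. Library numbers are not shared between groups, so no pairing was used. The paper ran its samples on separate flow cell lanes, each with as many samples as a treatment has libraries. Which library ran on which lane is not given in the sources used here, so whether lanes follow the treatments is not known. Single genes were also compared by exact two-sided permutation of mean log2(normalised count + 1), over 70 assignments (35 with a library left out, on the absolute difference), and edgeR 4.0.16 (quasi-likelihood) was the alternative test. Both fits were tested on simulated data with known changes. Alternatives were TMM size factors, at least 10 counts in every library, no Cook's filter, 1 transcript per gene, fits without or with a covariate for DMSO 20 and DOX 19, other thresholds, and leaving out each library. Intervals and floors cover counting or model error only.

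Members and lists were chosen with earlier results of these data known. Genes named with their values were all members, Pkd2, in each list the called genes and the 2 with the smallest p, and the 5 genes most like the targets. Hspa5, Xbp1, Ern1, Creld2, Gfral, Sesn1 and the collecting duct and proximal tubule markers were named after their values were seen. The marker lists without single libraries and the overlap on the TPM scale were alternatives chosen after seeing the data.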

Additional observations from a re-analysis of the deposited data

Results flagged for a closer look

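Levels of the 10 genes on the log2 scale were examined for a library far from the other 3 of its group, by its gap to the nearest library as a share of the group's range, set against Dixon's critical value for 4 samples. Of 20 groups tested, 2 were singled out, where chance gives about 1 in 20, and groups of different genes share their libraries. Ddit3 in DOX 9 lay apart from the other DOX libraries (gap 0.905 of the range). Atf3 in DMSO 20, with 0 counts, lay apart from the other DMSO libraries (gap 0.942). Atf3 was also at 0 in DOX 19, the other library of low gene detection.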

How the results depend on the processing

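Of 10 members with an adjusted p, 0 were called by edgeR, without the Cook's filter, without DMSO 20 and DOX 19, or with a covariate for them. Of 9, 0 were called with TMM size factors, with 1 transcript per gene or at an adjusted p of 0.1 (Ddit3 had none), and 0 of 8 with the count filter (neither Ddit3 nor Atf3 had one). Leaving out single libraries gave 0 to 1, the 1 being Asns without DMSO 15 (Trib3 had no adjusted p without DOX 19). The Asns log2 fold change then ranged from 1.11 to 1.82, that of Atf3 from -0.58 to 0.75 and that of Gdf15 from -0.70 to 0.28, the last 2 changing sign. Atf3 turned to -0.09 without DMSO 20 and -0.58 without DOX 9, and Gdf15 to 0.28 without DMSO 5 and 0.05 without DOX 21. The difference in mean log2 count ranged from -1.92 to 2.15 for Atf3 and from -0.58 to 0.28 for Gdf15. The other 8 members kept their direction in every fit. Over all genes, 25 were called (14 higher, 11 lower). The counts were 0 with edgeR (0 and 0), 16 with the count filter (9 and 7), 48 without the Cook's filter (25 and 23), 51 without DMSO 20 and DOX 19 (30 lower), 41 with the covariate (25 lower) and 40 at an adjusted p of 0.1 (27 higher). Leaving out single libraries gave 14 to 75 (6 to 42 higher, 6 to 33 lower), the highest without DMSO 15. The amino acid list, with 1 call, had 0 with edgeR, 2 in each of the fits without the Cook's filter, with 1 transcript per gene, without DMSO 20 and DOX 19 and with the covariate, and 0 to 3 without single libraries. The tRNA synthetases, with 2, had 0 with edgeR and without DMSO 20 and DOX 19, 1 with TMM, the count filter or the covariate, and 0 to 2 without single libraries. The bZIP, stress gene and relatives lists, with 0, had 0 to 1 without single libraries, the relatives having 1 without DOX 9 (Sesn1) and 1 without DMSO 20 and DOX 19 (Reln). The cause of these changes was not tested. With single libraries left out, the exact permutation p (smallest possible 0.0286) rose to 0.0571 for Asns without any 1 DOX library, for Trib3 without any 1 DMSO library or DOX 9 and for Ddit3 without DMSO 3 or DOX 9, and to 0.0857 for Ddit3 without DMSO 5 or DMSO 20. It fell to 0.0286 for Atf5 without DMSO 15 and for Sesn2 without DOX 21. The differences in mean log2 count then ranged from 1.25 to 1.80 for Asns, 1.48 to 2.51 for Trib3, 0.86 to 1.65 for Ddit3, 0.48 to 1.17 for Atf5 and 0.26 to 0.67 for Sesn2. Without both DMSO 20 and DOX 19 this test cannot go below 0.1. No paired analysis was possible because the groups share no library number.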
